A study of Mus musculus with 2 samples.

Results

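The Dlx, Msx and Barx genes are 3 small families of homeobox genes that pattern the mesenchyme and epithelium of the face. The 10 members examined here were all rows under the symbols Dlx1 to Dlx6, Msx1, Msx2, Barx1 and Barx2, out of 22072 gene symbols in the deposited tables, and each symbol had a row with status OK in both libraries. The RNA was taken from the tongues of mixed-background mice at embryonic day 12, and the tongues of 3 control and mutant pairs were pooled. The control library was from Osr1f/+ embryos, which carry 1 conditional allele of Osr1 and 1 wild-type allele. The mutant library was from Osr1f/-; Wnt1cre embryos, in which the conditional allele lies over a null allele. Wnt1cre acts in the neural crest lineage, so other cells of the mutant tongue keep the conditional allele beside the null allele. Osr1 encodes a zinc finger transcription factor.

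There was 1 library of each genotype and no replicate, so a ratio sets 1 library against the other and the genotypes could not be tested. Levels are FPKM, fragments per kilobase of transcript, scaled to the depth of the library. Depth, estimated from the deposited coverage, came to about 18938500 control reads and 23195100 mutant reads. Each ratio is given with its 95% counting interval, computed from these estimated reads. The interval holds counting error only, not the variation between embryos, and amplified reads are not independent molecules. Osr1 itself stood at 56.8 FPKM in control RNA and at 18.4 FPKM in mutant RNA. The muscle list (with Myod1 and Actc1) summed to 689 and 711 FPKM, the epithelial list to 215 and 189 FPKM and the neural crest mesenchyme list to 482 and 468 FPKM, so markers of the tissues of a tongue were present in both libraries.

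Homeobox genes encode transcription factors that bind DNA through the homeodomain. In mammals the Dlx genes lie in 3 linked pairs, Dlx1 with Dlx2, Dlx3 with Dlx4 and Dlx5 with Dlx6, and the members of a pair share enhancers. In the facial arches, Dlx5 and Dlx6 act downstream of endothelin signalling to give the lower jaw its identity, Msx1 and Msx2 respond to BMP signals, and Barx1 marks mesenchyme near the mouth and the stomach. Dlx5 and Msx2 are also known as regulators of early bone and skull formation.

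The homeoboxes of Dlx5 and Dlx6, a linked pair whose levels differed between the libraries, are shown because near-identical copies could have shared reads. They were read from the GENCODE M21 transcripts (build GRCm38), in which the 11 deposited member transcripts were matched by RefSeq accession. Each line is 180 bases of coding sequence, 5′ to 3′. Capitals mark the bases that differ between Dlx5 and Dlx6.
Dlx5: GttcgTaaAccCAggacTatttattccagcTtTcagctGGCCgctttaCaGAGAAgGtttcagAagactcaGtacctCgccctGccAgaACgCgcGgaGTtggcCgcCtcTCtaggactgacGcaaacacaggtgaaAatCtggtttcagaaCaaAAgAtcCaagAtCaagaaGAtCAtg
Dlx6: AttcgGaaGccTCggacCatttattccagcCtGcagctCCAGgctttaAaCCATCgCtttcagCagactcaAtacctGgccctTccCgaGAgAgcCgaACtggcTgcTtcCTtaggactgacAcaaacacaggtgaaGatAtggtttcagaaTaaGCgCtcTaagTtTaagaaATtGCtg

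The Dlx5 homeobox (chr6:6878441-6879657, minus strand) and the Dlx6 homeobox (chr6:6865140-6867088, plus strand) are each split by an intron between exons 2 and 3. The Dlx5 and Dlx6 homeoboxes were identical at 132 of 180 bases. Among the 15 pairs of Dlx homeoboxes the identity ran from 66.1% (Dlx3 and Dlx6) to 81.7% (Dlx2 and Dlx3). Over whole transcripts the longest run shared by any of the 45 pairs of members was 26 nt, between Dlx2 and Msx2. That is shorter than the 47.2 bases of coverage that 1 read was estimated to be worth.

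In the control library the members ran from 36.6 FPKM for Barx1 down to 0.0267 FPKM for Dlx4. Barx1 alone held 65.1% of the summed FPKM of the 10 members in control RNA and 61.4% in mutant RNA. It ranked 1575 among all symbols in the control. Barx2 came next, and its counting interval lay apart from those of Barx1 and Dlx2. Below it the control order was Dlx2, Dlx1, Msx1, Dlx3, Dlx5, Msx2, Dlx6 and Dlx4. Dlx2 and Dlx1 overlapped in their counting intervals, as did each neighbour from Msx1 to Dlx6. In the mutant library Dlx5 stood just under Barx2, above Dlx2 and Dlx1 with overlapping intervals, and the intervals of Msx1, Dlx6, Msx2 and Dlx3, in that order, each overlapped the next.

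**Figure D1:**
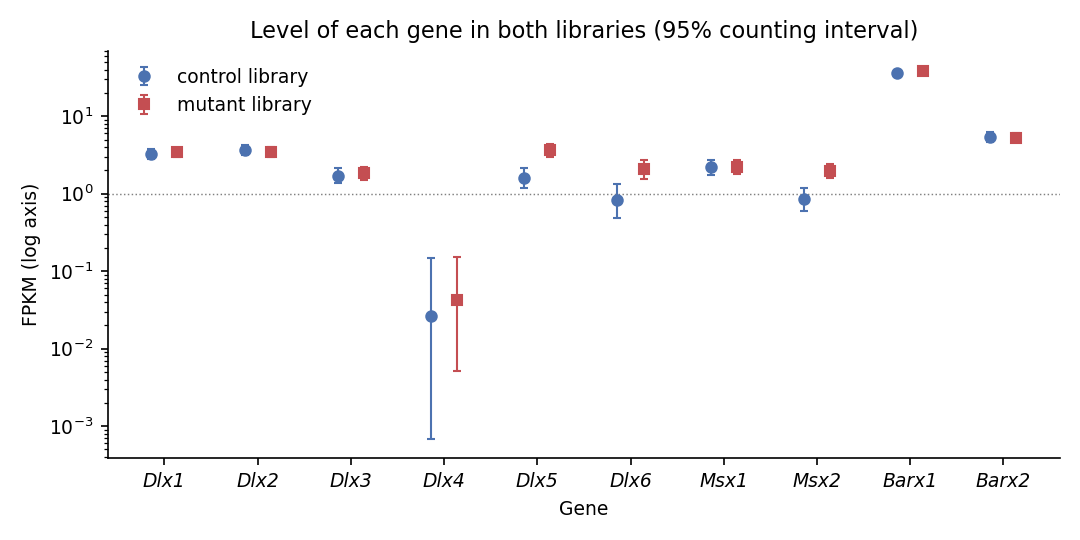
Level of each of the 10 genes in FPKM on a log axis, with the control library as circles, the mutant library as squares and bars for the 95% counting interval; the dotted line is 1 FPKM. Dlx5, Dlx6 and Msx2 have mutant intervals that lie above the control intervals, Barx1 is the most abundant in both libraries, and Dlx4 rests on 1 and 2 reads.

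Dlx5, Dlx6 and Msx2 were more than 2-fold higher in the mutant library, and the other measured members had ratios between 0.935 and 1.08. A ratio of at least 2 was seen for 0.751% of all measured genes, and for 2.35% of those with a mean under 5 FPKM. A gene was taken as measured if it reached 1 FPKM in either library, which 9 of the 10 members did. On the scale of FPKM plus 1, 3 of these 9 were at least 1.5-fold higher in the mutant and 0 were at least 1.5-fold lower. Over all 12383 measured genes, 0.896% were at least 1.5-fold higher and 0.581% lower. Among the 3579 measured genes with a mean under 5 FPKM, the range of all members but the Barx genes, 2.26% were at least 1.5-fold higher. Dlx6 and Msx2 reached 1 FPKM in the mutant library alone, so the filter itself kept them only for being high there. Without any filter the count was 3 of 10, against 0.621% of all symbols. The median log2 ratio of the 9 measured members was 0.06, against 0.0035 over all measured genes.

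**Figure D2:**
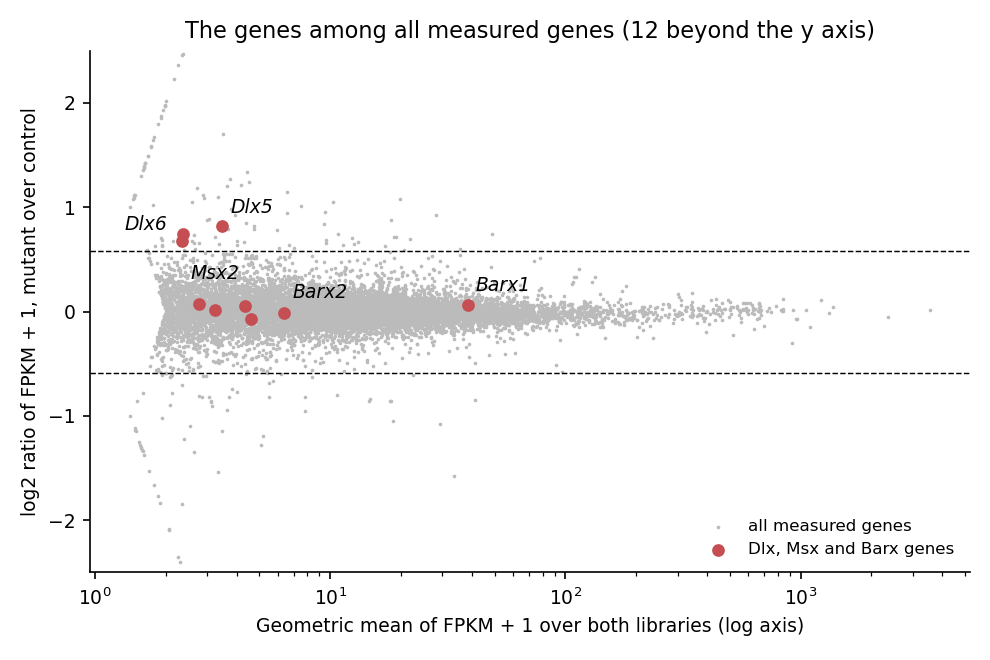
Each point is a measured gene, with the geometric mean of FPKM plus 1 on a log axis against the log2 ratio of FPKM plus 1, mutant over control; members are red, the dashed lines are 1.5-fold, and 12 genes lie beyond the y axis. Dlx5, Dlx6 and Msx2 lie above the upper line at low levels and the other 6 measured members lie near 0.

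Dlx5 stood at 1.62 FPKM in control RNA and at 3.63 FPKM in mutant RNA, from about 43 and 116 reads. The ratio was 2.25 (95% counting interval 1.54 to 3.20), and its log2 ratio of 0.82 ranked 69 among the 12383 measured genes. Dlx6, the partner of Dlx5 in the same cluster, stood at 0.827 FPKM in control RNA and at 2.06 FPKM in mutant RNA, for a ratio of 2.49 (1.39 to 4.52) from about 17 and 51 reads. Dlx5 held 66.1% of the FPKM of the pair in the control (51.8% to 78.3%) and 63.8% in the mutant library (55.8% to 71.5%), so the balance within the pair was not told apart between the libraries. Bulk RNA cannot tell a change in the number of cells that express a gene from a change in RNA per cell.

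The paired genes lay on chromosome 6 of mm9, the build of all gene positions given from here on, Dlx6 at 6813334 to 6817970 and Dlx5 at 6827805 to 6832068, with 9.83 kb between them. Dlx6os1, a long noncoding RNA whose model (6770546 to 6819533) spans the Dlx6 gene, stood at 0.407 FPKM in control RNA and at 1.01 FPKM in mutant RNA. Its ratio was 2.47 (1.64 to 3.75), close to the values of Dlx5 and Dlx6. Whether strand was used is not given in the sources used here. Reads of Dlx6 and of Dlx6os1 could therefore not be told apart where their exons meet. The same limit holds for Dlx1 with Dlx1as and for Msx1 with Msx1as, whose models also overlap. A further model inside Dlx6, Dlx6as, rested on about 1 read in each library. Within 500 kb of the pair the other measured genes were Shfm1 and Acn9, with ratios of 1.03 (0.953 to 1.12) and 1.26 (0.844 to 1.91).

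The level of Dlx5 was the sum of 2 transcripts of 1406 and 1324 nt, which the deposited tables split very differently between the libraries. The longer transcript (NM_010056) stood at 1.62 FPKM in control RNA and at 2.28 FPKM in mutant RNA, for a ratio of 1.41. The shorter one (NM_198854) was given 7.5e-05 FPKM in control RNA and 1.35 FPKM in mutant RNA, which is 37.3% of the gene. The longer transcript alone therefore falls below 1.5-fold on the scale of FPKM plus 1. In the GENCODE models exon 2 of the longer transcript opens with 82 bases that the shorter one lacks (GRCm38 chr6:6879629-6879710, minus strand). These bases are shown in capitals because the split rests on them, with 20 bases on either side in lower case.
Dlx5 exon 2, long form: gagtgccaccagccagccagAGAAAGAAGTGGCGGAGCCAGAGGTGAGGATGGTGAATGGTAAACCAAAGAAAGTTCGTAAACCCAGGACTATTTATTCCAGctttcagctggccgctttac

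Of these 82 bases, 29 belong to the homeobox. At the mean read density of Dlx5 they would carry about 2.51 control reads and 6.75 mutant reads. The ratio of 2.25 given above uses the sum over both transcripts.

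Dlx1 and Dlx2, the pair best known from the upper jaw and forebrain, were close to equal in both libraries. Dlx1 (chromosome 2, 71367502 to 71372037) stood at 3.28 FPKM in control RNA and at 3.44 FPKM in mutant RNA, for a ratio of 1.05 (0.855 to 1.29). Dlx2 (71381465 to 71384811) stood at 3.71 and 3.47 FPKM, for a ratio of 0.935 (0.758 to 1.15). The intervals of both lay below that of Dlx5 and overlapped each other. The log2 ratios of the partners differed by 0.13 for Dlx1 minus Dlx2 and by 0.08 for Dlx5 minus Dlx6. The latter changed sign with the processing: it was −0.10 with a pseudocount of 0.1, −0.03 on the TPM scale and −0.42 with the highest transcript of each gene alone. Over 4773 pairs of neighbouring measured genes no farther apart than the widest Dlx pair (15.2 kb), the median difference was 0.11 in size. Dlx1as, an RNA model that overlaps Dlx1, stood at 0.955 and 1.58 FPKM, for a ratio of 1.65 (1.16 to 2.33), while Dlx1 itself had an interval that included 1.

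**Figure D3:**
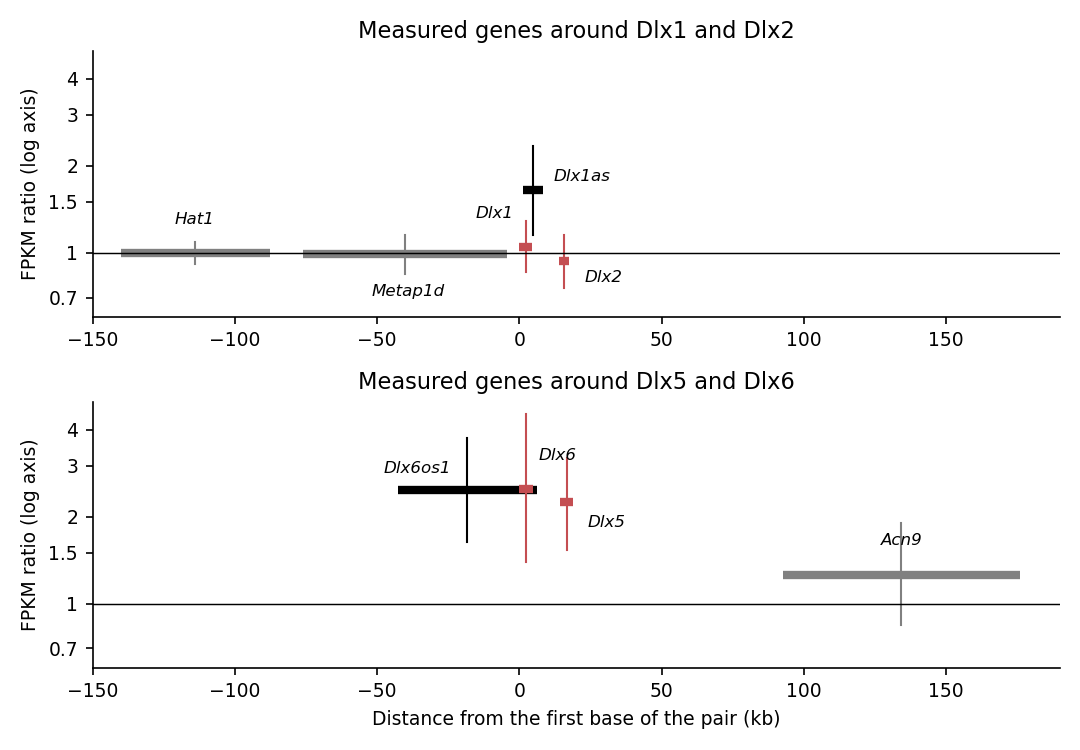
FPKM ratio of mutant over control (log axis) against distance in kb from the first base of the pair, for measured genes around Dlx1 and Dlx2 (top) and Dlx5 and Dlx6 (bottom); thick bars span the gene, thin bars the 95% counting interval, members are red and overlapping RNA models black. Dlx5, Dlx6 and Dlx6os1 lie above 2 while Dlx1 and Dlx2 lie near 1. Of the genes drawn, Dlx6, Dlx6os1 and Dlx1as reached 1 FPKM in the mutant library alone.

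Dlx3, a gene of surface epithelium and its appendages, stood at 1.71 FPKM in control RNA and at 1.85 FPKM in mutant RNA. Its ratio of 1.08 had a counting interval of 0.813 to 1.46. Dlx4, 15.2 kb away on chromosome 11, had 0.0267 and 0.0424 FPKM from about 1 and 2 reads. Both values lay under the level of 3 reads, which is 0.0870 FPKM for this transcript at the control depth and 0.0711 FPKM at the mutant depth, so no ratio is given for it or its pair. As a share of the summed FPKM of the 6 Dlx genes, Dlx5 and Dlx6 made up 21.9% of control and 39.2% of mutant. Dlx1 and Dlx2 made up 62.6% and 47.7%.

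The Msx genes, transcriptional repressors downstream of BMP signals, differed from each other. Msx2 (chromosome 13, 53562250 to 53568149) stood at 0.860 FPKM in control RNA and at 1.97 FPKM in mutant RNA, for a ratio of 2.29 (1.56 to 3.50) from about 35 and 99 reads. Msx1 (chromosome 5, 38211730 to 38215824) stood at 2.21 and 2.24 FPKM, for a ratio of 1.01 (0.744 to 1.37) from about 81 and 100 reads. The intervals of the 2 ratios did not overlap. Msx2 made up 28.0% of the FPKM of both Msx genes in the control (20.1% to 36.7%) and 46.8% in the mutant library (39.9% to 54.1%). Msx1as, a model within the Msx1 gene, stood at 0.386 and 0.423 FPKM, for a ratio of 1.10 (0.533 to 2.20). The 3 other measured genes within 500 kb of Msx2, which were Nfil3, Ror2 and Sptlc1, had ratios from 0.832 to 1.14. Among the 9 around Msx1, Stk32b had the highest ratio, 1.96, from levels of 1.16 and 2.27 FPKM.

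The Barx genes were alike in the libraries. Barx1 (chromosome 13, 48758405 to 48761876) stood at 36.6 and 38.2 FPKM, for a ratio of 1.04 (0.956 to 1.14) from about 945 and 1206 reads. This was the narrowest interval of the members. A 1.5-fold difference in either direction lay outside it, and also outside the intervals of Dlx1, Dlx2, Dlx3, Msx1 and Barx2. Barx2 (chromosome 9, 31653629 to 31720870), a gene of muscle precursors and epithelium, stood at 5.38 and 5.32 FPKM, for a ratio of 0.989 (0.811 to 1.21). Barx2 made up 12.8% of the FPKM of both genes in control RNA and 12.2% in mutant RNA. The counting interval included 1 for 6 of the 9 measured members, which were Dlx1, Dlx2, Dlx3, Msx1, Barx1 and Barx2, and lay above 1 for the other 3. Among all measured genes it lay above 1 for 10.7% and below 1 for 10.3%.

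**Figure D4:**
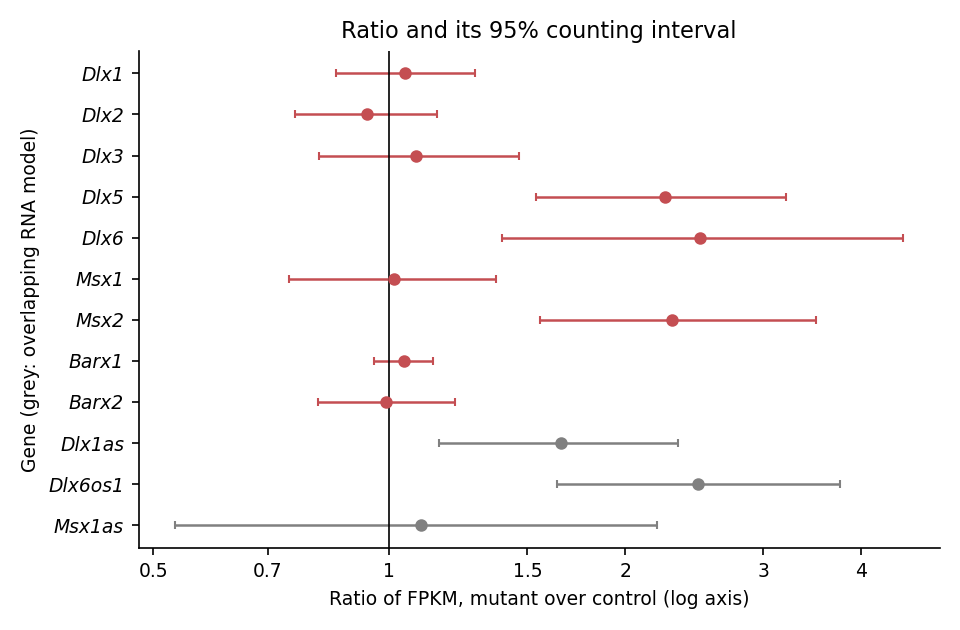
Ratio of FPKM, mutant over control, on a log axis, with bars for the 95% counting interval, for the 9 measured members (red) and 3 overlapping RNA models (grey). The intervals of Dlx5, Dlx6, Msx2, Dlx1as and Dlx6os1 lie above 1 and the others include 1.

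Genes that act before and after these factors did not share one direction. Of 10 genes for endothelin and FGF inputs, 8 were measured, 4 higher and 4 lower. Of the measured genes 0 were past 1.5-fold, and the median log2 ratio was −0.01. Fgf8 and Edn1 stayed under 1 FPKM in both libraries. Fgf8 had 0.367 and 0.892 FPKM, for a ratio of 2.43 (1.003 to 6.82) from about 7 and 21 reads. Edn1 had a ratio of 1.10 (0.565 to 2.20). The measured genes with the largest log2 differences were Fgf9 with a ratio of 0.835 (0.701 to 0.997), Ece1, which activates endothelins, with 0.904, Plcb3 with 0.906 and Mef2c, a factor downstream of the endothelin receptor, with 1.07. All 20 genes for BMP inputs and feedback were measured, 10 higher and 10 lower, 0 past 1.5-fold, with a median of 0.02. The ligands Bmp2 and Bmp5 had ratios of 1.29 (1.07 to 1.58) and 1.32 (1.12 to 1.55), the antagonist Chrdl1 had 1.23 (1.07 to 1.42), and the BMP target Id1 had 0.788 (0.709 to 0.876).

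Of 15 genes listed for their dependence on Dlx5 and Dlx6 in the lower jaw, 12 were measured, 4 higher and 8 lower. Their median log2 ratio was −0.05 and 0 were past 1.5-fold. Irx5, Foxl2 and Gbx2 stayed under 1 FPKM in both libraries. Irx5 had 0.499 and 0.989 FPKM, for a ratio of 1.98 (1.18 to 3.33), and the intervals of Foxl2 and Gbx2 included 1. Among the measured genes Unc5c, a netrin receptor, had the largest higher ratio, 1.52, from levels of 13.7 and 20.8 FPKM, just short of 1.5-fold on FPKM plus 1. Pou3f3, Cited1 and Hand1 had ratios of 0.684 (0.569 to 0.818), 0.749 (0.661 to 0.848) and 0.758 (0.642 to 0.894). Of 15 bone genes, 8 were measured, 3 higher and 5 lower, with a median of −0.03. Runx2, the regulator of osteoblast fate, was the 1 gene of the list past 1.5-fold, with 1.79 and 3.83 FPKM and a ratio of 2.13 (1.87 to 2.57). Its gene model overlaps that of Supt3h. Col1a1, Col1a2 and Alpl had ratios of 0.901, 1.13 and 0.803, and the late bone gene Mepe was listed at 0 in both libraries. Phex and Ibsp stayed under 1 FPKM in both libraries, with ratios of 2.02 (1.47 to 2.81) and 0.463 (0.224 to 0.884). The intervals of Spp1, Bglap, Bglap2 and Dmp1, also under 1 FPKM, included 1. Of 12 symbols listed for partners of Dlx and Msx proteins, 11 had a row, all but Miz1. Of these 10 were measured, 4 higher and 6 lower and 0 past 1.5-fold, with a median of −0.0036. Tle1, a corepressor, had a ratio of 1.14 (1.06 to 1.22), and Tle4, Sall4 and Hist1h1c had 0.969, 0.826 and 1.11.

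Of 44 other facial homeobox genes 34 were measured, 15 higher and 19 lower, with a median log2 ratio of −0.03. At least 1.5-fold higher were 3 of them, the Iroquois genes Irx1, Irx2 and Irx3, with ratios of 2.24 (1.93 to 2.61), 2.18 (1.83 to 2.61) and 2.11 (1.47 to 3.07). At least 1.5-fold lower were 0. Over all measured genes the shares were 0.896% higher and 0.581% lower. The counting interval lay above 1 for 11 of the 34 and below 1 for 7, against 10.7% and 10.3% of all measured genes. Likeness to a member was measured as the distance between log2 levels of FPKM plus 1 over the 2 libraries. Nearest to Dlx5 were Hhex (distance 0.476), Zfhx3 (0.567) and Irx3 (0.576). Their levels were 1.55, 2.85 and 1.10 FPKM in control RNA and 2.33, 3.99 and 2.32 FPKM in mutant RNA. Nearest to Msx1 were Nkx2-3 (0.263), Hhex (0.333) and Pax3 (0.343), the first and last with ratios of 0.785 and 0.631.

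Markers of other tissues also differed between the libraries. Of 15 cartilage genes 13 were measured and each of these was higher in the mutant, 3 past 1.5-fold, and the list summed to 235 FPKM in control RNA and 323 FPKM in mutant RNA. Of 18 epithelial genes, 3 were higher and 15 lower, and of 10 measured neuronal genes 3 were higher and 7 lower, 2 of the latter past 1.5-fold. The neuronal list summed to 55.8 and 45.8 FPKM, and the 7 measured erythroid genes were all lower, with sums over the list of 1431 and 1179 FPKM. Of 10 genes of forebrain GABA neurons, cells that express Dlx genes, 4 were measured, 2 higher and 2 lower, with list sums of 22.7 and 23.8 FPKM. Most of each sum came from Lhx6 (12.3 and 11.4 FPKM), also a listed facial homeobox gene, and Isl1 (6.25 and 6.34 FPKM). Gad1, Gad2 and Slc32a1 stayed under 1 FPKM in both libraries, and Gad1, the highest of these, stood at 0.139 FPKM in control RNA. The sums therefore do not show that such neurons were present. The muscle, neural crest mesenchyme and endothelial lists had 3 of 10, 3 of 10 and 5 of 8 measured genes higher and 0 past 1.5-fold. Of these 8 marker lists, 0 genes were listed at 0 in both libraries. The part of these cell types in the levels of Dlx5, Dlx6 and Msx2 was not tested.

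**Figure D5:**
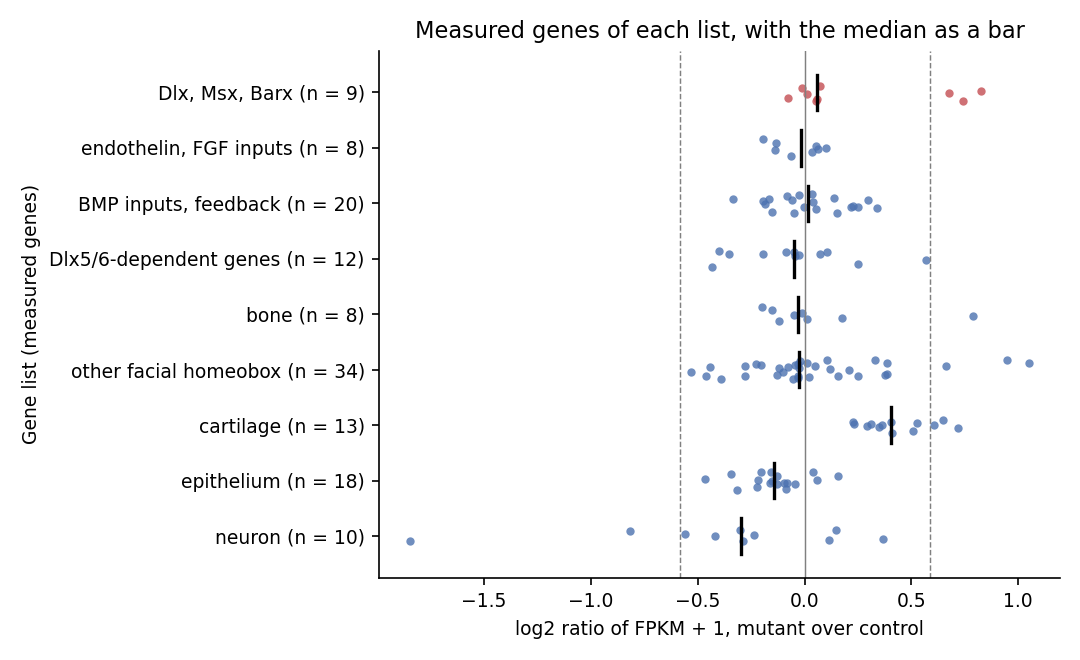
Log2 ratio of FPKM plus 1, mutant over control, for the measured genes of the member list (red) and 8 further lists (blue), with the median of each list as a black bar and 1.5-fold as dashed lines; the vertical position within a row has no meaning. Of the members 3 lie beyond the upper line, the cartilage genes all lie above 0, and the input and target lists spread to both sides.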

How the data were processed

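Per the labels' protocols, amplified cDNA was made with a NuGEN kit (Ovation RNA-Seq v2). TopHat 1.4.1, Bowtie 0.12.7 and build mm9 are listed in the submitters' processing notes. The deposited values, per the file headers, are FPKM of RefSeq transcripts in the layout of Cufflinks isoform output, with the coverage of each transcript, a signal not scaled for depth. The Cufflinks version is not given in the sources used here. Locus starts count from 0, since end minus start equalled the length in 3284 rows, and were raised by 1 for printing.

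FPKM were summed per symbol over 28107 rows. A gene was measured at 1 FPKM in either library with all rows OK. Log2 ratios used a pseudocount of 1 FPKM, which understates differences of low genes. One read was worth 47.2 bases of coverage, the median product of coverage and length between 20 and 75 bases over symbols with 1 row and 1000 nt or more, averaged over the libraries. Read numbers are therefore estimates. Exact conditional (Clopper-Pearson) 95% intervals used the resulting reads, rounded and without a floor. A level of 3 reads was used only as a floor for the FPKM of a member. The code was tested on simulated data. Python 3.11.15 and scipy 1.17.1 were used.

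Named were all members, Osr1, overlapping models, up to 4 genes of each pathway list by size of the log2 ratio, and the 3 facial homeobox genes nearest to Dlx5 and Msx1. One gene that this rule names is not reported here. Neighbours within 500 kb, Mepe and the other bone genes that were not measured, and Myod1 and Actc1 as markers were added after their values were seen. Members and lists were chosen with earlier results of these data known.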

Additional observations from a re-analysis of the deposited data

How the results depend on the processing

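Of the alternatives, 7 changed the pseudocount, the scale or the sum and 4 changed the filter or the threshold. Dlx5, Dlx6 and Msx2 kept their direction in all 7 of the former. Their log2 ratios ran from 0.32 to 1.12 for Dlx5, from 0.72 to 1.22 for Dlx6 and from 0.65 to 1.11 for Msx2. The lowest value for Dlx5, 0.32, came from its highest transcript alone, which drops the shorter transcript by construction and leaves 2 members at least 1.5-fold higher. The highest for Msx2, 1.11, came with a pseudocount of 0.1. The count of 3 members at least 1.5-fold higher was 0 with a threshold of 2-fold on FPKM plus 1. It was also 0 when 5 FPKM was required, where 2 members, Barx1 and Barx2, remained. Of the near-equal members, Msx1 changed sign, from −0.02 to 0.02. The difference of Dlx5 minus Dlx6 ran from −0.42 to 0.09. No replicate could be left out and no paired analysis was possible because there was 1 library of each genotype.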
